A study of Mus musculus with 25 samples.

Results

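Rph3a, Gpc5, Sez6l2, Ank1, Chd5 and Srrm3 are 6 of the 43693 genes counted in cells sorted from the injured mouse spinal cord, and were chosen by their measured levels, low 7 days after injury and higher 1 month after it. The values used for the choice are the levels at 7 days and 1 month in these cells, so the difference between those times, and the fall at 7 days that precedes it, are given below as a description without a test. That fall is measured from the sham libraries, so later comparisons with sham are not independent of the choice either. The question asked of them is whether the later level reached that of sham animals.

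The sorted cells came from animals of genotype GFAP-Cre-/+:R26-tdT-/+, in which a Gfap-driven recombinase switches on the red reporter tdTomato in any cell that expresses the driver or once did, so the reporter also marks the descendants of such cells. Sham animals (3 libraries) had a laminectomy at thoracic level T9 and were taken after 7 days. Injured animals had a T9 contusion of 60 kdyn and were taken after 7 days (3 libraries), 1 month (3) or 3 months (2, replicates 1 and 3), and the cord at the epicentre was digested, cleared of myelin and sorted for tdTomato. Time since surgery therefore separates the 1-month and 3-month groups from sham along with injury, and the parts of time and injury cannot be told apart. Whole epicentre tissue of C57BL/6 mice was sequenced 1 month (3 libraries) and 3 months (3) after the same contusion, and each sorted or tissue library pooled 3 mice. Cultured astrocytes came from brains of C57BL/6 pups at postnatal day 4 to 7 and carried a knockdown lentivirus against Zeb2os (2 libraries) or a control lentivirus (2), and in a separate set a knockdown lentivirus against Zeb2 (2) or a control lentivirus (2), all selected with puromycin at 1 µg/ml. Selection started at 24 h in the Zeb2os set and at 48 h in the Zeb2 set. It lasted 3 days in the Zeb2 set, and the labels of the Zeb2os set disagree on its length. The labels give the knockdown cultures the genotypes Zeb2os -/- and Zeb2 -/- and the controls WT, and do not say that the 2 libraries of a group were separate cultures, so p-values there measure only the spread between these libraries, which may be technical.

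Levels are counts per M reads (CPM) with library totals scaled by the trimmed mean of M values, computed from the deposited whole-number counts. A sorted library held 15.7 to 50.2 M counts, a tissue library 15.4 to 27.1 M, a library of the Zeb2os cultures 45.6 to 158.1 M and one of the Zeb2 cultures 29.0 to 65.4 M. Differences are log2 changes with their standard error (SE) from edgeR's quasi-likelihood F test, and rose, fell and changed are used of a gene whose Benjamini-Hochberg adjusted p, taken over all genes tested, was under 0.05. The sorted libraries did not look like astrocytes alone. Set against tissue at 1 month, 15 of 16 astrocyte markers were lower in sorted cells and 12 of 12 oligodendrocyte precursor markers were higher. Ependymal markers were higher too, in 12 of 12 cases, where 23.3% of all genes were called higher and 28.2% lower. The libraries are called sorted tdTomato+ cells here. The summed level of 16 astrocyte markers ran from 6727 to 9663 CPM in sham, from 3300 to 3737 CPM at 7 days, from 2235 to 2276 CPM at 1 month and from 2143 to 2404 CPM at 3 months. The summed level of 18 neuron markers overlapped between sham (790 to 920 CPM) and 1 month (825 to 878 CPM). It was 642 to 794 CPM at 7 days and 633 to 656 CPM at 3 months. Rbfox3, a marker of mature neurons, stayed between 0 and 3.40 CPM in sham and was 0.143 to 0.712 CPM at 7 days. It is 1 of the 18, picked after its values were seen. Neuron markers were called in both directions at 1 month against sham, so Rbfox3 alone does not give the neuron content. In bulk samples such as these, fewer cells of a type and less RNA per cell cannot be told apart.

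The 6 genes belong to different families with different roles. Rph3a encodes rabphilin-3A, which binds the small GTPases Rab3A and Rab27 and phospholipids on secretory vesicles and takes part in regulated release. Gpc5 encodes glypican-5, a heparan sulfate proteoglycan anchored to the cell surface by a lipid, whose sugar chains bind growth factors. Sez6l2 encodes a membrane protein with CUB and Sushi domains, a relative of the seizure-related protein Sez6. Ank1 encodes ankyrin-1, an adaptor that ties membrane proteins to spectrin and was first known from red blood cells. Chd5 encodes a chromatin remodelling ATPase of the CHD family that can form part of the nucleosome remodelling and deacetylase (NuRD) complex, and Srrm3 encodes a serine- and arginine-rich protein that promotes inclusion of very short exons in neural transcripts.

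The 300 bases around the start sites of 4 of the genes are shown to let their sequence be compared between Rph3a and Gpc5, which were still below sham at 1 month, and Chd5 and Srrm3, which did not pass the test there. They are RefSeq sequences of build GRCm38.p6, from 250 bases before to 50 after the start site, in lower case, with motif matches in capitals.
Rph3a promoter, minus strand of chr5:121010043-121010342: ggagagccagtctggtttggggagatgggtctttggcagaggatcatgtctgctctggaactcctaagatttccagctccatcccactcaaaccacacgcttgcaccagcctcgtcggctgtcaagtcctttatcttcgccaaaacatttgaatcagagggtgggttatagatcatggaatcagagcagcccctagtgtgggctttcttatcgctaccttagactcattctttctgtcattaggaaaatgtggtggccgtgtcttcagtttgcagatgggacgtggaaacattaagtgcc
Gpc5 promoter, plus strand of chr14:115091965-115092264: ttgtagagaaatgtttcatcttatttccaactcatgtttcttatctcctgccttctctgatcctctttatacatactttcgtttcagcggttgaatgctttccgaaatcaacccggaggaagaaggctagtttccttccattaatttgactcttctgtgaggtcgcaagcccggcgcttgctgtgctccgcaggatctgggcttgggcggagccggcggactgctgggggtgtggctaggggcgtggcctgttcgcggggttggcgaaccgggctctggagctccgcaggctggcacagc
Chd5 promoter, plus strand of chr4:152338401-152338700: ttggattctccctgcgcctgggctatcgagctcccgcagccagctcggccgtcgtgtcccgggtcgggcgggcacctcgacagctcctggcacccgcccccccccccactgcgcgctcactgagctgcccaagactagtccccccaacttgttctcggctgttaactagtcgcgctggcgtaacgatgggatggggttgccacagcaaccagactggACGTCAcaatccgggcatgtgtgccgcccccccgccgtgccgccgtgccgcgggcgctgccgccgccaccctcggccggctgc
Srrm3 promoter, plus strand of chr5:135817856-135818155: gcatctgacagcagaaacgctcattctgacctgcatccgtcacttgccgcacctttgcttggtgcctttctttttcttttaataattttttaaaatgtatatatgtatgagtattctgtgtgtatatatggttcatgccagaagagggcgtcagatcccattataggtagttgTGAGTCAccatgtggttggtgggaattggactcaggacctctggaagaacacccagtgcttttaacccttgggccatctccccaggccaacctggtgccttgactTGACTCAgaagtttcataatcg
The Srrm3 start site used by RefSeq lies 11216 bases inside the start of the gene in GENCODE M21, while the other 3 coincide. Base composition differed widely. The Chd5 window held 70.7% G or C and 32 CpG dinucleotides, that of Gpc5 54.7% and 17, that of Rph3a 49.3% and 7, and that of Srrm3 45.0% and 5, against medians of 52.7% and 7 over 32851 mouse promoters of this length. Of 5 motifs searched on both strands, the short cyclic AMP response motif TGACGT occurred once, in Chd5 (read there as ACGTCA, 33 bases before the start site), and is held by 7.51% of all promoters. The AP-1 site TGACTCA occurred in Srrm3 at 77 bases before the start site (read as TGAGTCA) and at 29 bases after it, and is held by 5.20% of all promoters. The motif TTCAGCACC of the neuronal repressor REST (0.371% of promoters), the STAT core TTCNNNGAA (8.30%) and the E-box CACGTG (7.15%) were in none of the 4 windows. Sez6l2 and Ank1 are named only.

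Rph3a (minus strand, chromosome 5, 120940499 to 121010092 in GENCODE M21 on build GRCm38) was measured at 47.0, 81.8 and 55.0 CPM in the 3 sham libraries, 1.13, 0.986 and 1.52 CPM at 7 days, 34.8, 22.1 and 26.5 CPM at 1 month, and 28.6 and 40.0 CPM at 3 months. Every sham library was above every injured one, and the 7-day libraries lay far below the rest, at 1.98% of the sham mean. Its log2 difference was -5.65 at 7 days against sham and 4.50 at 1 month against 7 days. The 1-month mean, 27.8 ± 6.47 CPM (SD, n = 3), was still 45.3% of the sham mean, 61.3 ± 18.2 CPM (n = 3). The 1-month and 3-month libraries overlapped in range.

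Gpc5 (plus strand, chromosome 14, 115092215 to 116525179) was measured at 64.4, 80.1 and 80.1 CPM in sham, 2.83, 1.37 and 3.29 CPM at 7 days, 20.8, 17.7 and 27.2 CPM at 1 month, and 23.7 and 23.8 CPM at 3 months. As with Rph3a, no injured library reached the lowest sham library. The log2 difference was -4.90 at 7 days against sham and 3.13 at 1 month against 7 days. Its mean stood at 3.33% of sham at 7 days, 29.3% at 1 month and 31.7% at 3 months, the lowest percentage of the 6 genes at each of the later times. An antisense transcript, Gm20713, shares 107 of the 4453 exonic bases of Gpc5 (2.40%).

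Sez6l2 (plus strand, chromosome 7, 126950563 to 126970606) was measured at 35.1, 34.5 and 27.7 CPM in sham, 5.23, 4.76 and 5.60 CPM at 7 days, 24.3, 23.0 and 19.7 CPM at 1 month, and 29.4 and 29.6 CPM at 3 months. The 1-month libraries were all below the lowest sham library, while both 3-month libraries lay inside the sham range. Its mean was 16.0% of the sham mean at 7 days, 68.8% at 1 month and 90.9% at 3 months. Gm21984, a transcript on the same strand, shares 413 exonic bases with it (9.81%), so part of its count could belong to either.

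Ank1 (plus strand, chromosome 8, 22974844 to 23150497) was measured at 48.6, 45.7 and 38.1 CPM in sham, 17.2, 15.2 and 17.4 CPM at 7 days, 51.8, 54.1 and 47.0 CPM at 1 month, and 33.5 and 40.5 CPM at 3 months. The 1-month range overlapped the sham range from above and the 3-month range overlapped it from below, and the 1-month and 3-month ranges did not overlap each other. Its mean was 37.6% of the sham mean at 7 days, 115.5% at 1 month and 83.9% at 3 months. The antisense transcript Gm15816 shares 862 of its exonic bases (6.37%), and reads from the 2 strands could not be told apart without the counting setting.

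Chd5 (plus strand, chromosome 4, 152338651 to 152390194) was measured at 67.6, 96.0 and 85.3 CPM in sham, 24.2, 19.6 and 27.5 CPM at 7 days, 79.2, 70.9 and 66.3 CPM at 1 month, and 56.7 and 73.1 CPM at 3 months. The ranges of sham, 1 month and 3 months overlapped, and its mean was 28.6% of sham at 7 days, 87.0% at 1 month and 78.2% at 3 months. Srrm3 (plus strand, chromosome 5, 135806890 to 135874772) was measured at 17.6, 24.2 and 21.7 CPM in sham, 5.29, 5.89 and 6.41 CPM at 7 days, 22.1, 22.3 and 23.0 CPM at 1 month, and 18.7 and 20.1 CPM at 3 months. All 3 of its 1-month libraries lay inside the sham range, as did both 3-month libraries. Its mean was 27.7% of sham at 7 days, 106.0% at 1 month and 91.7% at 3 months. The antisense transcript Gm13645 shares 101 exonic bases with Chd5 (1.05%), and no other annotated gene shares exonic bases with Srrm3 or Rph3a.

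**Figure D1:**
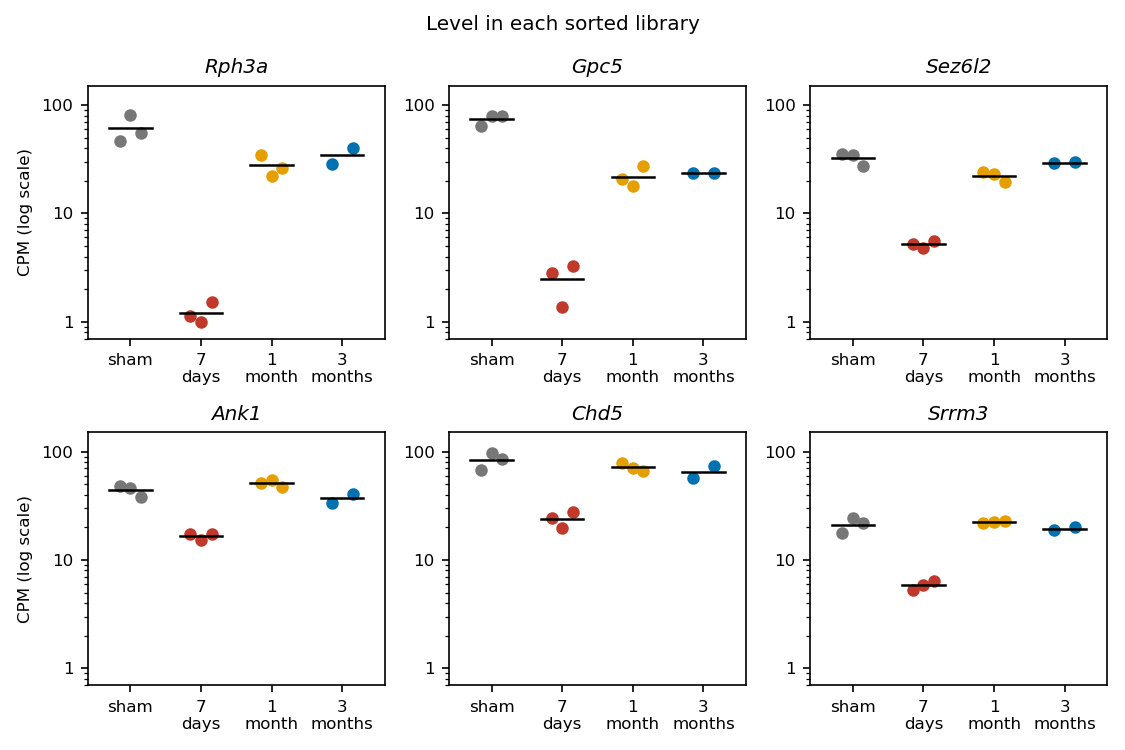
Level of each gene in every sorted library (points; vertical axis in CPM on a log scale) with the group mean (black line), for sham, 7 days, 1 month and 3 months. The 7-day points lie below every other point of the same gene, and for Rph3a and Gpc5 the sham points lie above all others.

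The depth of the fall at 7 days differed among the 6. The log2 difference from sham at 7 days was -5.65 for Rph3a, -4.90 for Gpc5, -2.64 for Sez6l2, -1.85 for Srrm3, -1.80 for Chd5 and -1.41 for Ank1, and 18.3% of the 24286 genes tested in sorted cells were called in that comparison (9.87% higher and 8.41% lower). The level at 1 month was 22.7-fold that at 7 days for Rph3a, 8.75-fold for Gpc5, 4.29-fold for Sez6l2, 3.83-fold for Srrm3, 3.07-fold for Ank1 and 3.04-fold for Chd5. Expressed as a share of the log2 fall at 7 days, the 1-month level had regained 63.8% for Gpc5, 79.5% for Sez6l2, 79.8% for Rph3a, 88.8% for Chd5, 104.5% for Srrm3 and 114.7% for Ank1. These percentages describe the libraries that chose the genes. Per kilobase of exon, the sham levels ran in the order Gpc5 (16.8 CPM per kb), Rph3a (13.2), Chd5 (8.66), Sez6l2 (7.70), Srrm3 (3.31) and Ank1 (3.26), and at 1 month Rph3a (5.99), Gpc5 (4.92) and Sez6l2 (5.30) were closer to each other.

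Other genes followed the same course across the 11 sorted libraries. Between pairs of the 6 genes, Pearson's r of log2 CPM ran from 0.861 (Gpc5 and Ank1) to 0.988 (Rph3a and Sez6l2), which follows from their choice. Among 17483 genes with a mean of at least 1 CPM, the non-members closest to the mean profile of the 6 were Tacc2 (r = 0.979), Csmd1 (0.975), Grin1 (0.970), C1ql2 (0.967), Gm12473 (0.964), Tac1 (0.963), Kcnip1 (0.963), LOC108169168 (0.962), Slitrk1 (0.960) and Cobl (0.959). Csmd1, like Sez6l2, encodes a protein of CUB and Sushi domains. Grin1 encodes the obligatory subunit of NMDA receptors, averaging 29.4 CPM in sham, 5.34 at 7 days, 23.0 at 1 month and 18.5 at 3 months. The nearest genes to Gpc5 alone were Tmem59l (0.982), Kcnk3 (0.977) and Porcn (0.976), and the nearest to Ank1 alone were Olfm2 (0.980) and Hlf (0.963), with Srrm3 itself at 0.958. These correlations are descriptions over libraries that share the same 4 groups.

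**Figure D2:**
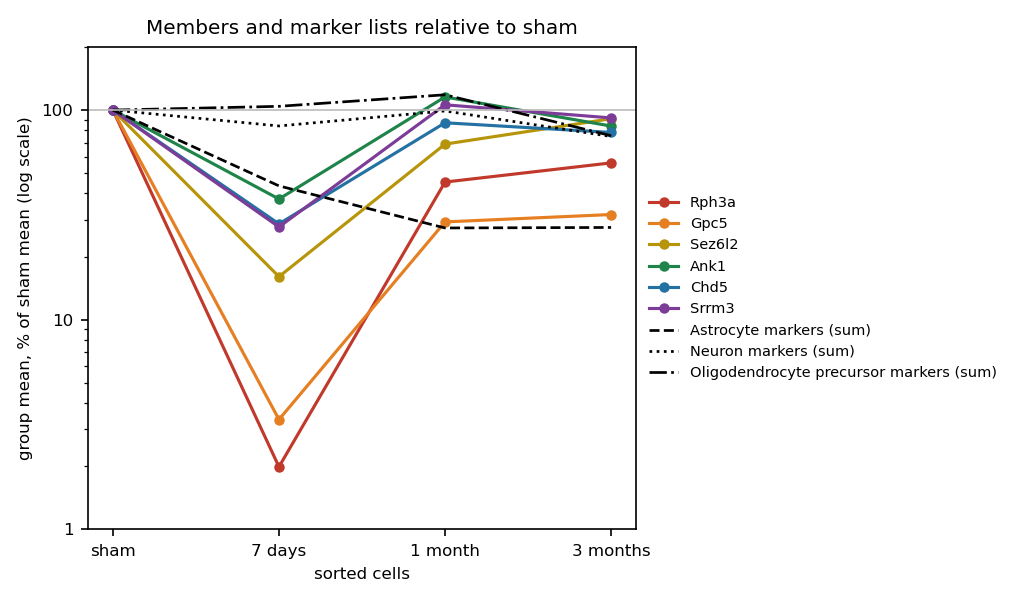
Mean of each sorted group as a percentage of the sham mean (vertical axis, log scale) for the 6 genes (coloured lines) and for the summed CPM of 3 cell type marker lists (black lines). Gpc5 stands at 31.7% and Rph3a at 56.0% of sham at 3 months, while the astrocyte marker sum is 43.5%, 27.4% and 27.5% of sham at 7 days, 1 month and 3 months.

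At 1 month, 2 of the 6 genes were below sham by the test and 4 did not pass it. Across all genes, 12.1% were called in this comparison, 6.23% higher and 5.83% lower, and the choice of the genes used these 1-month libraries. Gpc5 was lower at 1 month, at 21.9 ± 4.83 CPM against 74.9 ± 9.04 CPM in sham (n = 3 each; log2 change -1.77, SE 0.27, edgeR adjusted p = 0.000478). Rph3a was lower too (log2 change -1.14, SE 0.26, edgeR adjusted p = 0.00811), and this call was lost without replicate 2 of 1 month (edgeR adjusted p = 0.0618). Sez6l2 averaged 22.3 ± 2.38 CPM at 1 month and 32.4 ± 4.14 CPM in sham and did not pass (log2 change -0.54, SE 0.21, 95% interval -0.98 to -0.10 before adjustment, edgeR adjusted p = 0.113). For Ank1 the 95% interval of the log2 change was -0.17 to 0.59, for Chd5 -0.60 to 0.20 and for Srrm3 -0.39 to 0.56, with edgeR adjusted p of 0.533, 0.573 and 0.876. These intervals leave room for changes of up to about 1.5-fold, upward for Ank1 and Srrm3 and downward for Chd5, and less in the opposite direction. A missed threshold does not show that the levels were equal.

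The 3-month libraries were not used by the choice, but the sham libraries they are set against also gave the fall at 7 days. At 3 months Gpc5 alone was below sham by the test. It stood at 23.8 ± 0.073 CPM (n = 2) against 74.9 ± 9.04 CPM in sham (n = 3; log2 change -1.66, SE 0.31, edgeR adjusted p = 0.00238), where 11.7% of all genes were called, 6.78% higher and 4.93% lower. Rph3a stood at 34.3 ± 8.08 CPM at 3 months and 61.3 ± 18.2 CPM in sham and missed the threshold (log2 change -0.84, SE 0.29, 95% interval -1.46 to -0.22, edgeR adjusted p = 0.0799). It passed without replicate 1 of sham, its lowest sham library (edgeR adjusted p = 0.0313), and without a filter on low counts (0.0250). With each library left out in turn, the log2 change of Rph3a ran from -1.10 to -0.59, so it could also be smaller. Sez6l2 stood at 29.5 ± 0.118 CPM at 3 months and 32.4 ± 4.14 CPM in sham, with a 95% interval of the log2 change from -0.63 to 0.36. Ank1 (-0.26, SE 0.20), Chd5 (-0.36, SE 0.21) and Srrm3 (-0.12, SE 0.25) gave log2 changes whose edgeR adjusted p were 0.456, 0.313 and 0.818. The median log2 change over all genes tested was -0.10 at 3 months against sham and -0.02 at 1 month against sham. Both comparisons share the 3 sham libraries.

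**Figure D3:**
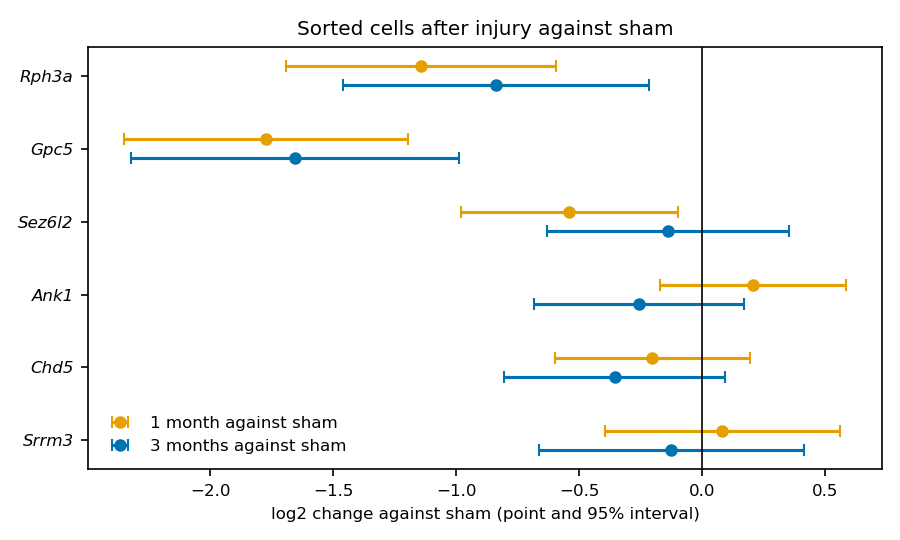
Log2 change of each gene at 1 month (orange) and at 3 months (blue) against sham in sorted cells, with the 95% interval of the edgeR fit before adjustment for the number of genes. Gpc5 lies at -1.77 and -1.66, Rph3a at -1.14 and -0.84, and the intervals of Ank1, Chd5 and Srrm3 include 0 at both times.

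From 1 to 3 months the ranges of the sorted libraries were apart for Ank1, lower at 3 months, and for Sez6l2, higher at 3 months, and overlapped for the other 4 genes. The log2 difference at 3 months against 1 month was 0.40 for Sez6l2, 0.30 for Rph3a, 0.12 for Gpc5, -0.15 for Chd5, -0.21 for Srrm3 and -0.46 for Ank1, given without a test because the 1-month libraries chose the genes. The sign for Gpc5 turned without replicate 2 of 1 month, its lowest 1-month library (-0.042).

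Some genes that were low at 7 days stayed far below sham. The 8 genes used, astrocyte genes listed with earlier results of these data known because they stayed low, are given as values with no test. Slc7a10, an amino acid transporter of astrocytes, averaged 346 ± 121 CPM in sham, 3.51 ± 0.594 at 7 days, 10.1 ± 1.13 at 1 month and 14.4 ± 2.31 at 3 months. Slc6a11, a GABA transporter, averaged 691 ± 169, 15.1 ± 3.89, 40.5 ± 6.14 and 46.6 ± 13.4 CPM in the same order. The 8 genes, summed, stood at 2.49% of sham at 7 days, 4.42% at 1 month and 5.75% at 3 months. Their median log2 difference at 1 month against 7 days was 1.36, beside 1.60 (Chd5) to 4.50 (Rph3a) for the chosen genes. A higher level at 1 month than at 7 days was therefore not particular to the chosen genes. The log2 change of Slc7a10 against sham was -6.63 at 7 days and -5.10 at 1 month, beside -5.65 and -1.14 for Rph3a.

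Other marker lists moved over the same groups. Microglia and macrophage markers were higher in 12 of 15 cases at 1 month and 13 of 15 at 3 months, with summed levels of 4747 to 7472 CPM at 1 month and 11807 to 15466 CPM at 3 months against 551 to 2391 CPM in sham. Astrocyte markers were lower in 13 of 16 cases at 7 days, 13 of 16 at 1 month and 12 of 16 at 3 months, and ependymal markers in 12 of 12 at 7 days and at 1 month and 8 of 12 at 3 months. Endothelial markers were higher in 12 of 12 cases at 7 days, 7 of 12 at 1 month and 11 of 12 at 3 months, and fibroblast and mural markers in 7, 6 and 5 of 12. Of 17 neuron markers tested, 3 were lower and 1 higher at 7 days (median log2 change -0.70), 2 were lower and 2 higher at 1 month (median 0.04), and 2 were lower and none higher at 3 months (median -0.65). At 1 month against 7 days 3 of them were higher and none lower (median 0.80), where 633 of all 24286 genes were called in either direction. That is the direction of the 6 genes over this interval. At 3 months against 7 days 3 of the 17 were higher and none lower (median 0.43). In that comparison 1470 of all 24286 genes were called in either direction. The neuron marker sum was 84.0% of sham at 7 days, 99.0% at 1 month and 74.8% at 3 months. Each of the 6 genes was above its 7-day level at 3 months. Oligodendrocyte precursor markers summed to 14377 to 15583 CPM at 7 days, 17044 to 17226 CPM at 1 month and 10197 to 11674 CPM at 3 months, against 12862 to 16551 CPM in sham. At 3 months this sum lay below the sham range, with 2 of 12 markers lower and none higher. The part of these shifts in the levels of the 6 genes was not tested.

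The proteins that work with rabphilin-3A were described from lists chosen with earlier results known. Of 18 vesicle release genes tested, 10 fell and 1 rose at 7 days against sham (median log2 change -0.74, all genes -0.06), 2 fell and none rose at 1 month (median -0.18, all genes -0.02), and 3 fell and none rose at 3 months (median -0.39). Those that fell at 1 month were Vamp1, a SNARE protein of synaptic vesicles (17.2 ± 4.40 CPM against 54.3 ± 21.0 CPM in sham, log2 change -1.66, edgeR adjusted p = 0.00317), and Unc13c, a priming factor (-1.14, adjusted p = 0.00447). At 1 month against 7 days 5 of the 18 rose and 1 fell (median 0.62), where 633 of all 24286 genes were called in either direction. At 3 months against 7 days 4 rose and 1 fell (median 0.66), where 1470 of all genes were called in either direction. In the list of 14 Rab3 and Rab27 genes, 2 rose and none fell at 1 month against sham. These were Rab3b (2.21, edgeR adjusted p = 0.00658) and Rab3d (1.64, adjusted p = 0.00136), small GTPases of secretory vesicles, while Rab3a, the best known partner of rabphilin-3A, stood at 23.2 ± 2.92 CPM at 1 month against 29.6 ± 6.31 CPM in sham (adjusted p = 0.407). Rph3al, the short relative of Rph3a, fell at 7 days (-1.54, edgeR adjusted p = 0.0329) and at 1 month (-1.66, adjusted p = 0.0314), and at 3 months its log2 change was -1.08 (adjusted p = 0.224). The C2-domain relatives Doc2a and Doc2b were near or below 2 CPM in each sorted group and did not pass at any time.

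Among glypicans, Gpc5 was not the only one below sham. Gpc3 fell at 7 days, 1 month and 3 months (log2 change -1.58, -1.59 and -1.31, edgeR adjusted p = 0.00250, 0.00371 and 0.0291), with 9.02 ± 1.35 CPM at 1 month against 27.2 ± 11.1 CPM in sham. Gpc4 fell at 1 month (-1.22, adjusted p = 0.0232), Gpc6 fell at 3 months (-0.74, adjusted p = 0.0263), and Gpc1 rose at 7 days (0.63, adjusted p = 0.0152). Gpc2 did not pass at any time. Of the 9 glypicans and syndecans other than Gpc5, 1 rose and 3 fell at 1 month, and again 1 rose and 3 fell at 3 months. Sdc1, syndecan-1, was the one that rose (18.1 ± 2.56 CPM at 1 month against 3.95 ± 1.21 CPM in sham, edgeR adjusted p = 0.000182), and Sdc2 fell. Of 20 genes of heparan sulfate synthesis and editing tested, 3 rose and 3 fell at 1 month. Hpse, the enzyme that cleaves heparan sulfate chains, rose at 1 month to 17.7 ± 7.85 CPM against 0.269 ± 0.233 CPM in sham (log2 change 5.85, edgeR adjusted p = 8.22e-06). Extl1, a glycosyltransferase of the chain, fell (-1.94, adjusted p = 3.40e-05), and its means, 111 ± 22.1 CPM in sham, 8.59 ± 1.31 at 7 days, 29.0 ± 5.58 at 1 month and 32.2 ± 6.29 at 3 months, followed a course like that of Gpc5.

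The nearest relatives of Sez6l2 fell at 7 days to a smaller degree. Sez6 was lower at 7 days (log2 change -1.24, edgeR adjusted p = 0.000222), at 1 month (-0.60, adjusted p = 0.0408) and at 3 months (-0.83, adjusted p = 0.0162). Sez6l was lower at 7 days (-1.15, adjusted p = 0.000694) and 3 months (-1.07, adjusted p = 0.00502), with -0.47 at 1 month (adjusted p = 0.148). Of the 9 genes listed with the Sez6 family, 5 fell and 1 rose at 7 days, 2 fell and 1 rose at 1 month, and 4 fell and none rose at 3 months. Bace2, a protease of the family that sheds Sez6 proteins, fell at 1 month to 28.6 ± 8.04 CPM against 101 ± 46.2 CPM in sham (adjusted p = 0.00183), and Neto2, another CUB-domain protein, rose (0.70, adjusted p = 0.0177).

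Relatives of Ank1, Chd5 and Srrm3 changed in both directions. Ank2 was lower at both later times, by edgeR with a log2 change of -0.82 at 1 month (adjusted p = 0.0155) and -1.40 at 3 months (0.00111), but stood at -0.30 at 7 days (adjusted p = 0.366), and Ank3 did not pass at any time. Of 16 other ankyrin and spectrin genes tested in sorted cells, 2 rose and 4 fell at 7 days, 2 rose and 1 fell at 1 month, and 1 rose and 2 fell at 3 months. Chd3 and Chd4, the CHD remodellers of NuRD in many cell types, rose at 7 days (0.63 and 0.47, edgeR adjusted p = 0.0141 and 0.0344), when Chd5 was at its lowest, and did not pass later. Of 19 CHD and NuRD genes tested, 6 rose and none fell at 7 days, 3 rose and none fell at 1 month, and 1 rose and none fell at 3 months. Srrm4, a relative of Srrm3 that also acts in microexon splicing, did not pass at any time. It stood at 2.22 ± 0.856 CPM in sham, 1.04 ± 0.194 at 7 days, 1.08 ± 0.667 at 1 month and 2.81 ± 0.137 at 3 months. Of 20 neural splicing genes, 2 rose and 3 fell at 7 days, 2 rose (Ptbp3 and Elavl3) and 1 fell (Rbfox1) at 1 month, and 1 rose and none fell at 3 months. At 1 month against 7 days 3 of the 20 rose and none fell, where 633 of all 24286 genes were called in either direction. Rest itself was 40.8 ± 1.76 CPM in sham, 46.4 ± 7.43 at 7 days, 38.8 ± 3.38 at 1 month and 33.4 ± 3.08 at 3 months and did not pass. Of the 10 REST complex genes, 3 rose at 7 days and none passed at 1 month or 3 months.

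In whole tissue, where the libraries are independent of the choice, Ank1 was higher at 3 months than at 1 month and the others did not pass. Ank1 was measured at 252, 234 and 232 CPM at 3 months against 150, 123 and 164 CPM at 1 month. All 3 libraries of 3 months were above all 3 of 1 month (239.5 ± 11.3 CPM against 145.4 ± 21.0 CPM, log2 change 0.72, SE 0.11, edgeR adjusted p = 0.00915), where 14.7% of 19652 genes were called, 6.69% higher and 8.01% lower. The call was lost without replicate 1 of 1 month (edgeR adjusted p = 0.0586). Rph3a was measured at 502, 538 and 497 CPM at 3 months against 398, 320 and 456 CPM at 1 month, with a log2 change of 0.39 that did not pass (edgeR adjusted p = 0.0749). Sez6l2 averaged 473 ± 64.8 CPM at 3 months against 370 ± 40.9 CPM at 1 month, Chd5 157 ± 13.5 against 127 ± 14.6, Srrm3 41.5 ± 4.06 against 36.7 ± 3.26, and Gpc5 33.3 ± 3.86 against 28.1 ± 2.83. The log2 change was above 0 for each of these 4, between 0.18 and 0.35, with edgeR adjusted p of 0.0868 to 0.261.

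Other ankyrins and several marker lists moved in tissue over the same interval. Of 18 other ankyrin and spectrin genes 11 rose and 1 fell (median log2 change 0.38). Of 15 microglia and macrophage markers 12 fell and none rose (summed level 2374 to 3392 CPM at 3 months, 5874 to 7933 CPM at 1 month; median log2 change -1.06). Of 17 neuron markers 8 rose and none fell (summed level 7900 to 9039 CPM at 3 months, 5382 to 6996 CPM at 1 month). Of 8 erythrocyte markers 4 rose and none fell, with overlapping summed levels of 446 to 1171 CPM at 3 months and 469 to 639 CPM at 1 month. Slc4a1, the anion exchanger that ankyrin-1 anchors in red blood cells, was at 43.9 ± 27.4 CPM at 3 months against 4.17 ± 3.16 CPM at 1 month (edgeR adjusted p = 0.0228). The part of these markers in the rise of Ank1 was not tested. In sorted cells of 1 month and 3 months Slc4a1 was at 0 in every library. The 8 erythrocyte markers were not absent there, with summed levels of 17.7 to 21.3 CPM at 1 month and 18.2 to 40.5 CPM at 3 months.

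All 6 genes were lower in sorted cells than in tissue at both times by the test, most of all Rph3a and Sez6l2, while the call for Gpc5 at 1 month depended on which libraries entered the fit. Sorted and tissue libraries differ in mouse line and in preparation as well as in the cells they hold, which cannot be told apart, and the 1-month sorted libraries are those that chose the genes. At 3 months Sez6l2 stood at 29.5 ± 0.118 CPM in sorted cells against 473 ± 64.8 CPM in tissue (18.1-fold lower, log2 change -4.18, SE 0.17, edgeR adjusted p = 8.98e-09), where 50.7% of 23259 genes were called, 22.5% higher and 28.2% lower in sorted cells. Rph3a was 17.0-fold lower (log2 change -4.08, SE 0.24, edgeR adjusted p = 1.41e-07), Ank1 7.33-fold lower, Chd5 2.74-fold lower and Srrm3 2.41-fold lower. Gpc5 had the smallest difference, with 23.7 and 23.8 CPM in sorted cells against 28.8, 35.4 and 35.6 CPM in tissue (log2 change -0.66, SE 0.18, edgeR adjusted p = 0.00919). At 1 month, where 51.5% of genes were called, 23.3% higher and 28.2% lower, the log2 changes were -4.15 for Sez6l2, -3.91 for Rph3a, -1.61 for Ank1, -0.91 for Chd5, -0.81 for Srrm3 and -0.46 for Gpc5. The Gpc5 call at 1 month (edgeR adjusted p = 0.0286) held for 2 of the 6 libraries dropped in turn, with adjusted p up to 0.0987 for the others, and was lost with the 2 groups fitted alone (0.0712). Neuron markers were lower in sorted cells in 15 of 17 cases at 1 month and 17 of 17 at 3 months, with medians of -5.33 and -5.83, and their part in these differences was not tested.

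**Figure D4:**
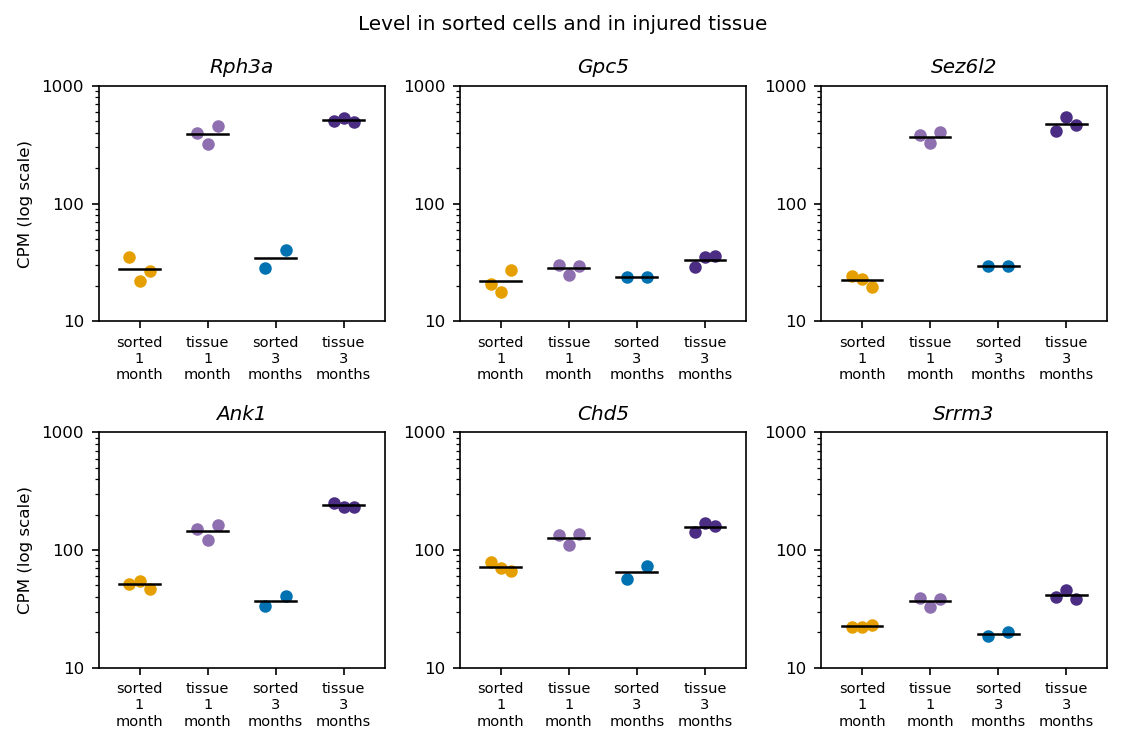
Level of each gene in every sorted and tissue library at 1 month and 3 months (points; vertical axis in CPM on a log scale) with the group mean (black line). Rph3a and Sez6l2 lie more than 10-fold lower in sorted cells than in tissue, and for Gpc5 the ranges of sorted cells and tissue overlap at 1 month.

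Between 1 and 3 months Ank1 moved in opposite directions in sorted cells and in tissue. It was lower at 3 months in sorted cells (37.0 ± 4.97 CPM, against 51.0 ± 3.62 CPM at 1 month) and higher in tissue, without overlap of the ranges in either. In a joint fit added after the values had been seen, the log2 change in sorted cells less that in tissue was -1.26 for Ank1 (SE 0.18), -0.54 for Chd5 and -0.46 for Srrm3, and lay between -0.20 and -0.03 for Gpc5, Rph3a and Sez6l2. These differences are given without a test, because the 1-month sorted libraries chose the genes for a level above that at 7 days.

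In cultured brain astrocytes Ank1 and Chd5 were measured at 1.76 to 6.84 CPM and the other 4 genes below 2 CPM. In the Zeb2os set Rph3a was counted 12 and 5 times in the knockdown libraries (0.281 and 0.103 CPM) against 38 and 26 times in the controls (0.476 and 0.148 CPM), and Gpc5 21 and 1 times against 35 and 32 times. Sez6l2 stood at 0.117 and 0.888 CPM in knockdown against 0.539 and 0.605 CPM in control cultures. Ank1 and Chd5 were the highest, with Ank1 at 4.47 and 4.85 CPM in knockdown against 5.69 and 6.84 CPM in control, and Chd5 at 6.04 and 4.61 CPM against 6.08 and 5.33 CPM. Srrm3 stood at 1.61 and 1.36 CPM in the knockdown libraries against 0.451 and 0.651 CPM in the controls, groups that did not overlap (log2 change 1.42, SE 0.59, edgeR adjusted p = 0.386). None of the 6 changed, where 0.188% of 20741 genes were called. The target itself, Zeb2os, was at 3.14 and 4.32 CPM in the libraries labelled knockdown against 5.82 and 3.80 CPM in the controls, so the ranges overlapped and the labels of this set had no clear check in its target. No direction is drawn from this set.

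In the Zeb2 set the target was lower, with Zeb2 at 23.2 and 16.1 CPM in knockdown against 147 and 134 CPM in control cultures. Ank1 stood at 1.76 and 3.29 CPM in knockdown against 5.04 and 5.46 CPM in control, without overlap (log2 change -1.06, SE 0.48, edgeR adjusted p = 0.999), and Chd5 at 3.36 and 1.82 CPM against 5.46 and 3.72 CPM, likewise without overlap (log2 change -0.82, SE 0.51). Sez6l2 stood at 1.55 and 1.03 CPM against 0.845 and 0.879 CPM. Rph3a, Gpc5 and Srrm3 were counted between 2 and 63 times in each library of this set. By edgeR none of the 6 changed and 0 of 17609 genes were called (0%), with 683 genes at an unadjusted p under 0.05, while DESeq2 called 28 genes. Differences of the sizes seen in sorted cells could not be judged here for the 4 genes under 2 CPM.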

How the data were processed

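RNA was sequenced in 25 mouse libraries. The authors deposited whole-number counts of reads per gene, not normalised, in 4 tables (sorted cells, tissue and the 2 culture sets). Per the submitters' processing notes, they worked with build mm10 and with DESeq2, Cufflinks 2.2.1, TopHat2 2.1.0 and FastQC. How reads were counted, on which annotation and strand, is not given in the sources used here. Per the labels' protocols the kit marks strand, but without the counting setting overlapping antisense genes are uncertain.

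Each table was fitted with edgeR 4.0.16 in R 4.3.3 (quasi-likelihood F test, TMM scaling, low counts filtered by edgeR at a minimum of 10, Benjamini-Hochberg adjusted p threshold 0.05), after a check on simulated counts. The 4 sorted groups shared 1 fit, and sorted and tissue counts were joined by gene identifier for their comparison. All 6 members passed the filter in every table. CPM used the TMM-scaled totals. Alternatives were other size factors, filters, DESeq2 1.42.0, a replicate block, 2 groups alone and each library left out in turn.

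The members and gene lists were chosen with earlier results of these data known. Beside the members, named genes were their close relatives, up to 4 called genes per list with the smallest adjusted p at 1 month against sham, and the genes with the most similar profile (highest Pearson r of log2 CPM with a prior count of 2). Other partners named (Rab3a, Rest) and the markers Rbfox3 and Slc4a1 were chosen after their values were seen.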

Additional observations from a re-analysis of the deposited data

Results flagged for a closer look

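Ank1 moved in opposite directions between 1 and 3 months in sorted cells and in tissue, and the difference was not tested. Both sorted libraries of 3 months were below all 3 sorted libraries of 1 month, and all 3 tissue libraries of 3 months were above all 3 of 1 month. The log2 change in sorted cells less that in tissue was -1.26, and -1.40 to -1.15 with each of the 11 libraries left out in turn. The comparison was added after the values had been seen and rests on the 1-month sorted libraries that chose the gene, and sorted cells and tissue also differ in mouse line and preparation.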

How the results depend on the processing

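Of the 6 members, the number called changed under some alternatives. At 1 month against sham it was 2, and 1 to 2 with a library left out. At 3 months against sham it was 1, 2 with no filter on low counts, and 1 to 2 with a library left out. In tissue it was 1, 2 with no filter, 4 with DESeq2, and 0 to 4 with a library left out. Sorted against tissue at 1 month it was 6, and 5 to 6 with a library left out. Several log2 differences, none of them called, changed sign when a library was left out. In sorted cells these were Gpc5 at 3 months against 1 month (0.12, range -0.042 to 0.30, negative without replicate 2 of 1 month) and Srrm3 at 1 month against sham (0.08, range -0.034 to 0.18, negative without replicate 1 of sham). In Zeb2os cultures they were Rph3a (-1.57 to 0.37), Gpc5 (-3.82 to 0.66), Sez6l2 (-2.29 to 0.63) and Chd5 (-0.31 to 0.071), and in Zeb2 cultures Rph3a (-1.51 to 1.17), Gpc5 (-2.31 to 1.95) and Srrm3 (-0.11 to 0.027). For the change in sorted cells less that in tissue they were Rph3a (-0.42 to 0.047) and Sez6l2 (-0.13 to 0.075), and Sez6l2 was also 0.00048 at a minimum count of 30. The causes of these shifts were not tested.

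With a replicate block the members called numbered 2 at 1 month and 1 at 3 months against sham, 1 in tissue, 6 sorted against tissue at each time and 0 in both culture sets, as without it. Samples of the same number did not deviate together in sorted cells (r from -0.044 to 0.081) or tissue (-0.274 to -0.011). The numbers were therefore not taken to pair these samples. Each culture group held 2 libraries, which deviate from their mean by equal and opposite amounts, so both pairs of a set give the same r. That single value, -0.026 for Zeb2os cultures and 0.39 for Zeb2 cultures, cannot decide whether the numbers pair the samples. The block moved the genes called in tissue from 2889 to 506, from 39 to 554 for Zeb2os cultures and from 0 to 80 for Zeb2 cultures.

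Over all genes, calls at 1 month against sham were 2927, and 1727 to 3471 with a library left out. At 3 months against sham they were 2844, 885 with the 2 groups alone, and 1189 to 3540 with a library left out. In tissue they ran from 305 to 5980 with a library left out, in the Zeb2os set from 20 to 4354 (625 with no filter, 540 with DESeq2), and in the Zeb2 set from 2 to 804 (142 with no filter, 28 with DESeq2). Where leaving out a library left 1 in a group, it was assumed to vary like the others. In the cultures 4 members had few counts in libraries of 29.0 to 158.1 M counts, and 2 sorted libraries at 3 months limited that comparison.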
